A study of Mus musculus with 8 samples.

Results

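The Gimap genes encode a family of GTPases of immune-associated proteins that is expressed mainly in lymphocytes. The family was taken as every probe set of the array whose platform annotation gives 1 gene symbol, and that symbol is Gimap1, Gimap3, Gimap4, Gimap5, Gimap6, Gimap7, Gimap8 or Gimap9. This gave 11 probe sets of 8 genes, among 18193 genes with such a probe set. Each of 8 one-colour mouse arrays measured RNA from 1 mouse, taken from double-positive thymocytes, a stage at which developing T cells express CD4 as well as CD8. All mice were 4 to 5 weeks old, carried Cd4-Cre and were Tcra-/-, so their thymocytes lack the T-cell receptor alpha chain and cannot be positively selected through it. Cells were enriched with anti-CD4 columns, and the series asks what c-Myb deficiency changes in them before selection.

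The control group held 4 mice that the genotype field calls c-Myb sufficient, and the mutant group held 4 mice that it calls c-Myb deficient. The source names disagree with that field, since they give the control mice Mybf/f and the mutant mice Mybf/w. In what follows, control and mutant mean the mice labelled so, and every difference is the arrays labelled mutant minus the arrays labelled control. Cd4-Cre acts from about the double-positive stage, so a floxed gene is deleted late in the life of these cells. Myb itself, the targeted gene, was not lower on the arrays labelled c-Myb deficient, which goes against that label. Probe set 1422734_a_at rose from 4518 ± 460 to 5777 ± 428 (SD, n = 4; log2 0.36 ± 0.08, SE, limma adjusted p = 0.0327). Probe set 1421317_x_at read 9362 ± 1150 and 11290 ± 543 (0.28 ± 0.08, adjusted p = 0.0845), and 1450194_a_at 7293 ± 846 and 7480 ± 323 (0.04 ± 0.08, adjusted p = 0.816). Whether these probes lie in the floxed part of Myb is not known here; probes outside it would not check the label. No direction below can therefore be assigned to loss of c-Myb.

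GIMAP proteins share a GTP-binding domain, and several of them sit on membranes of mitochondria, lysosomes or the endoplasmic reticulum. They are best known for the upkeep of T cells: loss of Gimap5 causes lymphopenia in rats and mice, and loss of Gimap1 depletes mature T and B cells. Expression of some members is known to change as thymocytes pass from the double-positive to the single-positive stage. The mouse genes lie side by side on chromosome 6, which RefSeq (GRCm38.p6) orders as Gimap8, Gimap9, Gimap4, Gimap6, Gimap7, Gimap1, Gimap5 and Gimap3. No other named gene that is not a pseudogene or a provisional model lies between them.

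Gimap4 and Gimap9, which are direct neighbours, were the genes of the family that passed the test, and they moved in opposite directions. Their promoters are shown for that reason. RefSeq sequences were matched by symbol for all 8 genes in the promoter table of GRCm38.p6, which holds 300 bases around each start. Positions are counted from the annotated start of transcription, the first transcribed base being 1 and the base before it -1, and a match is placed by its first base in the printed direction. Capitals mark the 6 motifs searched on both strands: AACGG and AACTG (c-Myb core), GTAAACA (Foxo), TGTGGT (Runx), CACCC (Klf) and GGAAGT (Ets).
Gimap4 promoter, chr6:48684328-48684627, plus strand: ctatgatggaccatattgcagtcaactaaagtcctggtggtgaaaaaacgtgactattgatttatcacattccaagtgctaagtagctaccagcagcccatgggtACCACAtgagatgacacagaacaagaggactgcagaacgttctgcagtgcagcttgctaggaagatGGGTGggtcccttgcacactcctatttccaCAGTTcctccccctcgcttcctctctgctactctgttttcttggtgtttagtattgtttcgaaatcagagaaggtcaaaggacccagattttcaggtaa
Gimap9 promoter, chr6:48675885-48676184, plus strand: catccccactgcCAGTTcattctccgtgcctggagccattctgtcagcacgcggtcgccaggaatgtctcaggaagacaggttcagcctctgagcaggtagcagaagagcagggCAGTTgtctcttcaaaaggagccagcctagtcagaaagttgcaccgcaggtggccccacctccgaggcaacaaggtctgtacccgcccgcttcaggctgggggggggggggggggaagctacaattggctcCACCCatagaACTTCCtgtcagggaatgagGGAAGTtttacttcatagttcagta

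The AACTG core was in both windows, at -49 in Gimap4 and at -238 and -136 in Gimap9, in each case on the opposite strand (printed as CAGTT). The AACGG core was in neither. Both windows held 1 CACCC match, at -79 on the opposite strand in Gimap4 and at -5 in Gimap9. GTAAACA was also in neither. They differed in the other two motifs: the Gimap4 window held TGTGGT on the opposite strand (-145) and no GGAAGT, and the Gimap9 window held GGAAGT at 6 (opposite strand) and 26 and no TGTGGT. Over the family, AACTG was present in 6 of 8 genes, CACCC in 5, GGAAGT in 4, TGTGGT in 3, and AACGG (Gimap7) and GTAAACA (Gimap3) in 1 each. Neither motif was confined to the called genes: TGTGGT was also in Gimap1 and Gimap7, and GGAAGT also in Gimap1, Gimap5 and Gimap6. These genes did not pass the test, and whether a motif goes with a direction was not tested. These short strings are common. Of all 32851 promoter windows of the same length, 44.8% held AACTG, 57.5% CACCC, 23.8% GGAAGT, 16.8% TGTGGT, 17.4% AACGG and 3.65% GTAAACA. A match is a string in the sequence and was not measured as a bound site.

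The deposited values are linear signals, in arbitrary units, scaled to the same trimmed mean on each array. Differences were fitted on log2(signal + 16), a scale on which the change of dim probe sets is understated. The fit took the 22599 probe sets with signals above 33.8, the median of all deposited values, on 4 or more of the 8 arrays. Of these, 1316 (5.82%) passed an adjusted p of 0.05 in limma, 3.14% higher and 2.68% lower in mutant. Of the 11 Gimap probe sets 10 were tested. Both probe sets of Gimap4 rose, that of Gimap9 fell, and the other 7 tested did not pass. Counted with 1 probe set for each gene, where 9.98% of 9941 genes passed, 2 of the 8 Gimap genes did. Control and mutant values were fully separated for 3 of the 10 tested Gimap probe sets, those that passed, against 14.3% of all tested probe sets. These 3 come from 2 genes, since both Gimap4 probe sets are among them. Of the Gimap4 probe sets, 1424374_at entered the fit through the mutant arrays, where it is high. The median difference was 0.18 over the 10 and 0.008 over all. Levels of different probe sets cannot be ranked on this array, so each gene is compared only with itself.

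**Figure D1:**
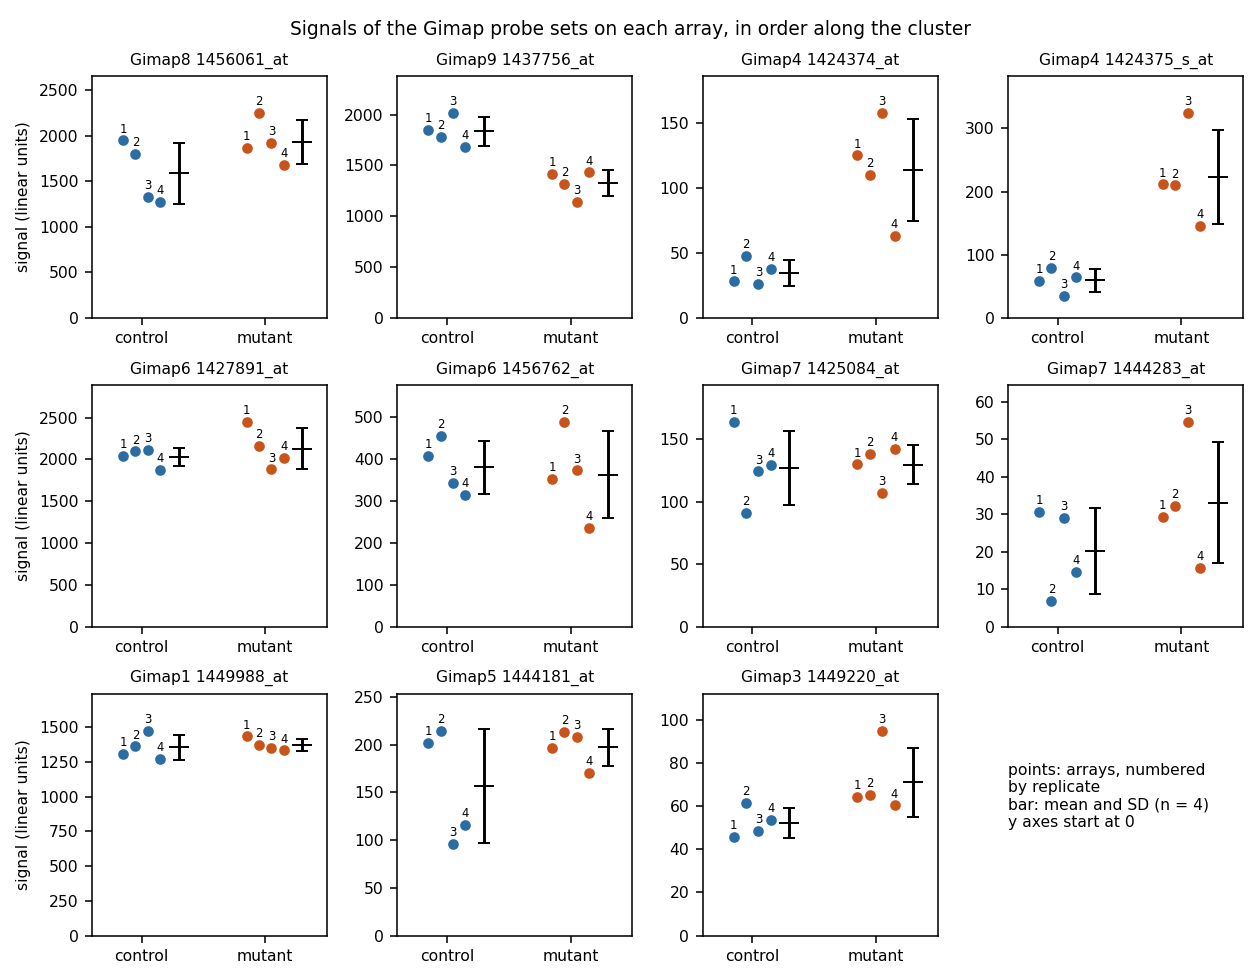
Linear signal (y axis, arbitrary units, from 0) of each of the 11 Gimap probe sets on the 4 control and 4 mutant arrays, with points numbered by replicate and bars giving mean and SD. Groups separate for both Gimap4 probe sets and for Gimap9, and overlap for the other 8.

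Gimap4 is a GTPase that rises as double-positive cells are selected and has been linked to the pace of T-cell death. On probe set 1424375_s_at it read 58.6, 78.5, 35.1 and 63.9 in control mice 1 to 4, and 211.2, 209.8, 324.5 and 146.1 in mutant mice 1 to 4. The lowest mutant mouse was above the highest control mouse. The log2 difference was 1.66 ± 0.25 (SE), or 3.15-fold (95% interval 2.16 to 4.59), with an adjusted p of 0.00355 and a two-sided exact permutation p of 0.0286, the smallest that 70 labellings can give. Only 0.549% of all tested probe sets differed by as much in either direction. The suffix _s_at marks probes that may match more than 1 transcript, so the other probe set is of interest.

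The other Gimap4 probe set, 1424374_at, was dimmer and moved the same way. It read 28.0, 47.7, 25.9 and 37.6 in the control mice, where 2 of 4 values were above the table median, and 125.2, 110.0, 158.0 and 62.9 in the mutant mice. It thus entered the fit through the mutant arrays, where it is high, and a dim filter on all arrays left it out. Its log2 difference was 1.32 ± 0.25 (2.5-fold, 95% interval 1.71 to 3.65, adjusted p = 0.0125), again with no overlap and an exact permutation p of 0.0286. The size depended on the pseudocount: 1.65 with 1 and 0.83 with 64, against 1.90 and 1.20 for 1424375_s_at. Both probe sets placed the mice of each group in the same order, with mutant 3 highest, mutant 4 lowest of the mutants, control 2 highest of the controls and control 3 lowest. Mutant 4 also stood apart in the 18S ribosomal RNA control (5' probe set 7142.7, against 676.1 to 1459.4 on the other arrays); without it the Gimap4 differences were 1.82 (adjusted p = 0.00266) and 1.54 (adjusted p = 0.00305).

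Gimap9, a member whose function is less well known, fell. Its probe set 1437756_at read 1849.3, 1785.2, 2017.7 and 1686.8 in the control mice and 1415.3, 1321.6, 1144.0 and 1431.0 in the mutant mice. The groups did not overlap. The log2 difference was -0.46 ± 0.10, or 0.725 of the control level (95% interval 0.626 to 0.839, adjusted p = 0.0186, exact permutation p = 0.0286). It was a modest change, since 12.4% of tested probe sets differed by at least as much. The call was lost without control 3 (adjusted p = 0.0756) and without mutant 2 (0.0616), where the difference was -0.42 and -0.46.

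Gimap4 and Gimap9 were also set against each other and against the other 6 genes within each array, a comparison chosen after the values were seen. The log2 signal of Gimap4 minus that of Gimap9 lay between -5.31 and -4.25 in control mice and between -3.16 and -1.77 in mutant mice, a shift of 2.12. Against the other 6 genes the shift of Gimap4 was 1.29 (Gimap5) to 1.63 (Gimap1), and that of Gimap9 was -0.83 (Gimap5) to -0.48 (Gimap1). In all 13 pairs, each gene taken by its brightest probe set, the groups did not overlap. Both genes were picked because their own groups were separated, so these shifts are a description and carry no test. In the mutant group the mouse with the most Gimap4 signal (mutant 3) had the least Gimap9 signal, and the mouse with the least Gimap4 (mutant 4) had the most Gimap9. These 2 arrays also had the highest and lowest median signal (37.9 and 30.0). In the control group control 3 had the least Gimap4 and the most Gimap9. Control 2 had the most Gimap4, but the least Gimap9 was in control 4 (1686.8, against 1785.2 in control 2).

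**Figure D2:**
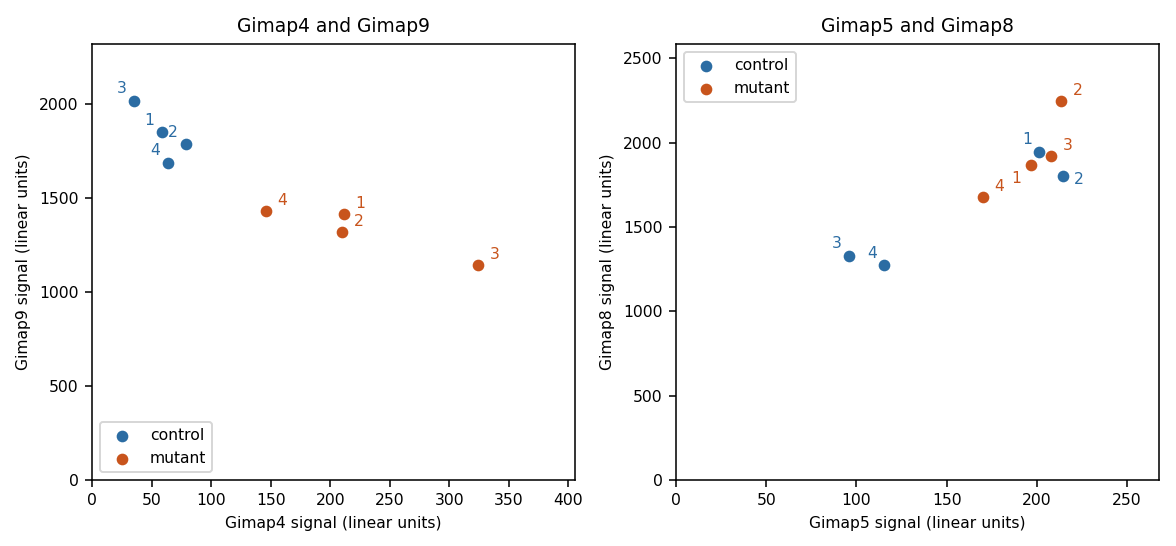
Signals of 2 genes on the same array, Gimap4 (1424375_s_at) against Gimap9 on the left and Gimap5 against Gimap8 on the right, in linear units from 0, with each point an array numbered by replicate. Control and mutant arrays separate on both axes on the left, while on the right control 3 and 4 lie apart from the other 6 arrays.

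Gimap8, a long member with several GTPase domains, and Gimap5, which is needed for T-cell survival and sits on lysosomes, did not pass the test and shared a split within the control group. Gimap8 (1456061_at) read 1947.3, 1800.0, 1329.2 and 1272.6 in the control mice and 1866.8, 2249.1, 1923.3 and 1676.6 in the mutant mice. Gimap5 (1444181_at) read 201.5, 214.4, 96.1 and 115.5, then 196.7, 213.4, 208.1 and 170.2. For both genes control 3 and 4 lay below all mutant mice. Control 1 lay within the mutant range for both, and control 2 lay within it for Gimap8 and just above its highest value for Gimap5. The difference was 0.29 ± 0.15 for Gimap8 (95% interval -0.03 to 0.62, adjusted p = 0.288) and 0.37 ± 0.23 for Gimap5 (-0.14 to 0.87, adjusted p = 0.407). The upper limits of these intervals are rises of 1.54-fold and 1.83-fold. Without 1 array Gimap8 ranged from 0.20 to 0.40, and Gimap5 from 0.18 (without control 3, adjusted p = 0.743) to 0.53 (without control 2, adjusted p = 0.203).

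The same split of the control mice was seen in the array medians. These were 35.7 and 34.9 in control 1 and 2, and 30.3 and 32.4 in control 3 and 4. They were 33.5, 36.0, 37.9 and 30.0 in mutant 1 to 4. Mutant 4 had the lowest median, while its Gimap8 and Gimap5 signals (1676.6 and 170.2) lay above those of control 3 and 4. Whether the medians account for the split was not tested. With the array median in the model, a fit added after the values were seen, the difference was 0.24 for Gimap8 and 0.28 for Gimap5, and neither passed. Gimap4 then differed by 1.54 (1424375_s_at, adjusted p = 0.000157) and 1.22 (1424374_at, adjusted p = 0.00251), and Gimap9 by -0.43 (adjusted p = 0.0069).

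Gimap3, a close paralog of Gimap5 whose older names include Gimap5, read 45.6, 61.5, 48.5 and 53.7 in control mice and 64.1, 65.1, 94.9 and 60.3 in mutant mice on probe set 1449220_at. Only control 2 and mutant 4 overlapped. The difference of 0.34 ± 0.17 did not pass (95% interval -0.04 to 0.72, adjusted p = 0.305, exact permutation p = 0.0571). Because the sequences of Gimap3 and Gimap5 are alike, how far each probe set reads the other gene is uncertain, and this was not tested.

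Gimap1, Gimap6 and Gimap7 showed the smallest differences. Gimap1 (1449988_at), required for mature lymphocytes, was the steadiest: 1309.4, 1362.8, 1475.0 and 1273.8 in control mice, and 1434.8, 1375.9, 1350.2 and 1333.3 in mutant mice. Its difference was 0.02 ± 0.08, with a 95% interval of -0.15 to 0.19, so a change beyond 1.14-fold upward or to 0.899 of the control level lies outside the interval. Gimap6, which binds the autophagy protein GABARAPL2, had 2 probe sets. Probe set 1427891_at read 2038.7, 2097.1, 2116.7 and 1876.9 in control mice and 2449.7, 2165.0, 1881.7 and 2023.0 in mutant mice, a difference of 0.06 ± 0.09 (adjusted p = 0.758). Probe set 1456762_at ranged from 314.9 to 454.6 in control mice and from 236.1 to 488.2 in mutant mice (-0.10 ± 0.20, adjusted p = 0.833). The groups overlapped on both.

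Gimap7, a GTPase that can stimulate GTP hydrolysis by a partner GIMAP protein, read 164.1, 91.4, 124.4 and 129.6 in control mice and 130.0, 138.7, 107.4 and 142.5 in mutant mice on 1425084_at. The control range enclosed the mutant range, and the difference was 0.04 ± 0.17 (95% interval -0.34 to 0.42, adjusted p = 0.926). Its other probe set, 1444283_at, was the 1 Gimap probe set left out of the fit. It read 6.9 to 30.5 in control mice and 15.7 to 54.6 in mutant mice and passed the median on 1 array, mutant 3.

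**Figure D3:**
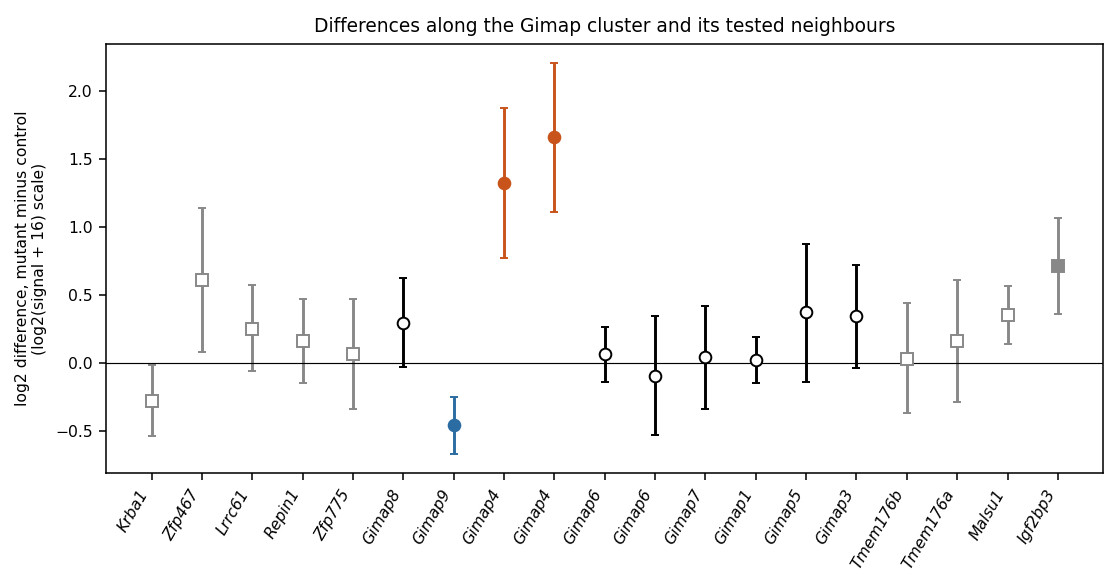
Log2 difference (mutant minus control, points) with its 95% interval (bars) for tested Gimap probe sets (circles) and for tested neighbours (grey squares) in their order along chromosome 6. Filled symbols passed an adjusted p of 0.05: Gimap9 below 0, both Gimap4 probe sets above 0, and Igf2bp3 above 0.

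The genes next to the cluster gave a reference for its position. Of the 10 named genes on each side, 15 had a probe set and 9 were tested. Only Igf2bp3, which encodes an RNA-binding protein and is the farthest of the 10 on the Gimap3 side, passed: it rose from 123.5 ± 19.0 to 212.7 ± 38.8 (log2 0.71 ± 0.16, adjusted p = 0.0272). That call was lost in 5 of 8 fits without 1 array (control 2, 3 or 4, mutant 1 or 2) and with no dim filter. The nearest tested genes on either side did not pass. Zfp775, a zinc finger gene beside Gimap8, differed by 0.06 ± 0.18, and Tmem176b, a membrane protein gene beside Gimap3, by 0.03 ± 0.18. The median over the 9 was 0.16. Of all tested probe sets 5.82% passed in this fit. In the fit with 1 probe set a gene 2 neighbours rose, where 9.98% of all genes passed in either direction. Counts this small are not read as a result about the neighbours. Within the cluster, Gimap8 and Gimap6, the genes on the far sides of Gimap9 and Gimap4, differed by 0.29 and 0.06.

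The family was next set beside a list of 20 genes that GIMAP proteins were reported to bind or act through, of the Bcl-2 family, autophagy, GSK3 beta signalling and lysosomes. Of 19 tested, 1 rose and 0 fell, 18 did not pass, and the median was 0.03. Over all tested probe sets 3.14% rose and 2.68% fell. In the fit with 1 probe set a gene 9.98% of all genes passed in either direction, and of the partner genes again 1 rose and 0 fell. The riser was Lamp1, a lysosomal membrane protein, at 1784 ± 102 in control and 2171 ± 27.1 in mutant mice (log2 0.28 ± 0.07, adjusted p = 0.0426), a call that was lost in each of 7 fits without 1 array. Gabarapl2, the partner of GIMAP6, differed by 0.18 ± 0.09 (adjusted p = 0.258) and Map1lc3b, also of the autophagy genes, by -0.25 ± 0.08 (adjusted p = 0.0942). The Bcl-2 family went both ways. Bcl2 differed by 0.33 ± 0.15 (adjusted p = 0.246), Bcl2l11 by 0.29 ± 0.15 (0.305), Bad by 0.26 ± 0.12 (0.244) and Bcl2l1 by -0.27 ± 0.11 (0.2). Gsk3b, a kinase placed downstream of Gimap5, differed by -0.17 ± 0.10 (adjusted p = 0.379).

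Genes that rise as thymocytes mature to the single-positive stage, the step at which Gimap4 is known to rise, were listed next. Of 24 listed, 20 were tested: 9 rose, 2 fell, 9 did not pass, and the median was 0.61. Over all tested probe sets 5.82% passed, and over all genes 9.98% in the fit with 1 probe set a gene. The largest rises were those of the chemokine receptor Ccr7 (3.65 ± 0.35), the tetraspanin Cd53 (2.88 ± 0.43), the integrin chain Itgb7 (2.53 ± 0.29) and the chemokine receptor Ccr4 (2.06 ± 0.37). Ccr7 was above the median on 2 of 4 control arrays and Ccr4 on 1 of 4, so both entered the fit through the mutant arrays, and with a dim filter on all arrays 7 genes of the list rose. The 2 that fell were the membrane protein gene Ms4a6b (-0.87, adjusted p = 0.0207) and Ifngr1, a chain of the interferon gamma receptor (-0.58, adjusted p = 0.0112). S1pr1, the egress receptor of mature cells, was too dim to test (2.9 to 28.6 in control and 10.5 to 37.0 in mutant mice), and Il7r differed by 0.52 ± 0.39 (adjusted p = 0.498). The list was chosen with earlier results of these arrays known, so it is not independent evidence of a direction. Of the Gimap genes, Gimap4 also rose and Gimap9 also fell, but every called gene either rises or falls, so this links neither to the list. Whether their differences belong to maturation was not tested.

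Among 9933 other genes, the 3 most like Gimap4 over the 8 arrays were Il12rb1, a chain of the interleukin-12 receptor (Pearson r of log2 signals 0.993), Dpcd (0.99) and the tubulin gene Tuba8 (0.988). Tuba8 was above the median on 0 of 4 control arrays (5.3 to 21.5), so it entered the fit through the mutant arrays (48.7 to 125.2). Il12rb1 read 139.6, 172.2, 93.7 and 137.9 in control mice and 444.6, 423.1, 517.5 and 316.2 in mutant mice, and so had control 3 lowest, control 2 highest, mutant 4 lowest and mutant 3 highest, as Gimap4 had. The 3 most like Gimap9 were Ssbp2, a single-stranded DNA-binding protein gene (0.987), the protease inhibitor gene Spint2 (0.983) and Elf4, an Ets family factor (0.982). Ssbp2 read 4959.8, 4877.5, 5183.1 and 4755.5 in control mice and 3741.3, 3715.4, 3061.1 and 3916.8 in mutant mice. All 6 had groups that did not overlap, so these correlations largely restate the difference between groups, and they carry no test.

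Markers of the labelled cell type were present: Cd4, Cd8a, Cd8b1, Rag1, Rag2, Ptcra, Dntt and Cd3e passed the median on all 8 arrays. Of these 8, 1 fell (Rag2, -0.41 ± 0.07, adjusted p = 0.00865), and their summed signal was 53893.6 to 57524.3 in control and 51545.7 to 54898.5 in mutant mice. Over all tested probe sets 5.82% passed, and over all genes 9.98% in the fit with 1 probe set a gene. B cells, natural killer cells and endothelium also express Gimap genes. Of the B cell markers, Cd79a read at most 25.6, and Ms4a1 17.1 to 21.2 in control and 23.4 to 37.5 in mutant mice, both too dim to test. Cd79b was measured on all arrays, at 319.5 to 557.4 in control and 417.4 to 610.6 in mutant mice (log2 0.25, adjusted p = 0.458). Of 7 B cell markers with a probe set 2 were tested and 0 passed, with a summed signal of 7145.1 to 7377.2 in control and 7670.1 to 8608.2 in mutant mice, most of it Ighm (log2 0.18, adjusted p = 0.0946). Of 7 natural killer, NKT and gamma-delta markers 3 were tested and Gzma, a granzyme gene, rose by 0.75 ± 0.11 (adjusted p = 0.00306). Klrd1, a natural killer receptor gene, read 14.0 to 74.2 in control and 75.5 to 107.8 in mutant mice (0.78, adjusted p = 0.201), and Ncr1 read at most 17.6. Nkg7 differed by 0.39 (adjusted p = 0.482) with overlapping groups, and Tbx21, Zbtb16 and Sox13 were too dim to test. The sum was 2044.7 to 2603.9 in control and 3163.5 to 4324.2 in mutant mice, most of it Gzma. Of 10 endothelial and stromal markers 3 were tested and 0 passed (sum 824.6 to 872.4 and 569.0 to 829.7, most of it Pecam1, -0.36, adjusted p = 0.19), and the endothelial genes Cdh5, Kdr, Tie1 and Tek read at most 31.8. Of 10 macrophage and dendritic markers 7 were tested and 0 passed (461.3 to 896.0 and 769.5 to 1032.7, with Ctss at 1.0, adjusted p = 0.0702, and Cd14 below the median on all arrays). Of 3 erythroid markers 1 was tested, the globin gene Hba-a2 (-0.12, adjusted p = 0.708), and 0 passed (110.5 to 162.2 and 98.4 to 146.1). The part of other cells in the Gimap4 difference was not tested. Bulk arrays cannot tell fewer cells of a type from less RNA per cell.

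Xist, the RNA of the inactive X chromosome, moved with the groups. It read 4128.7 to 5735.5 in all 4 mutant mice and 4358.5 in control 1, but 23.4 to 36.7 in control 2, 3 and 4, while the Y-linked genes Eif2s3y, Kdm5d and Uty were low in control 1 and all mutant mice. These genes mark control 1 and all mutant mice as female, and control 2, 3 and 4 as male. With 1 female control array, sex and group cannot be told apart here. The Gimap4 signal of control 1 (58.6) lay within the range of the other control mice (35.1 to 78.5), as did its Gimap9 signal (1849.3 in 1686.8 to 2017.7), a comparison that rests on 1 array. With the Xist class (signal above or below 1000) in the model, where control 1 alone carries the group difference, Gimap4 differed by 1.63 and 1.51 and Gimap9 by -0.48. None was called in that fit (adjusted p = 0.224, 0.267 and 0.424), in which 8 probe sets of the whole table passed and the median SE was 0.255 against 0.159. Gimap8 and Gimap5 differed by -0.02 and -0.03 there.

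**Figure D4:**
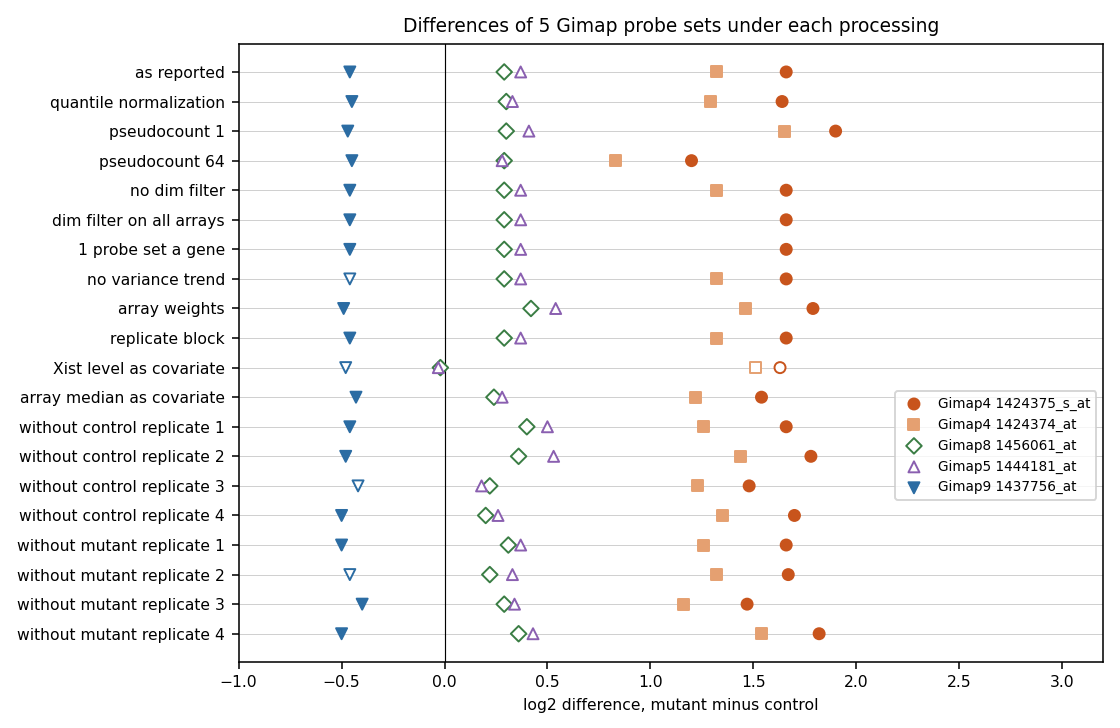
Log2 difference (mutant minus control) of 5 Gimap probe sets (x axis) under each processing choice (y axis), filled where the adjusted p was under 0.05. Gimap4 stayed at 0.83 or above and Gimap9 between -0.50 and -0.40 in all fits, while Gimap5 and Gimap8 reached -0.03 and -0.02 with the Xist class in the model.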

How the data were processed

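RNA of 8 mice was measured on one-colour Affymetrix arrays, 4 for each group as titled. The deposited intensity values, 1 linear signal for each of 45101 probe sets, were made by the authors with GCOS, per the submitters' processing notes. Not given in the sources used here are its version and settings; no label names a batch. After 64 control probe sets were left out, 34945 had 1 symbol, 932 several and 9160 none. Correlations between arrays were 0.974 to 0.984 within groups and 0.964 to 0.979 across them, and no pair was a copy (at most 271 identical values).

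From there, log2(signal + 16) was fitted with limma 3.58.1 in R 4.3.3 (lmFit, eBayes with a variance trend, two-sided), Benjamini-Hochberg adjusted over all 22599 probe sets past the dim filter. All adjusted p-values come from this fit unless stated. The labels call the arrays biological replicates. Tables were made with pandas 2.3.3 (Python 3.11.15) and plots with matplotlib 3.10.9. The fit was tested on simulated data. The planned protein comparison was not run, since no protein sequences were used here.

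The members, lists and tests were chosen with earlier results of these data known. All probe sets of the 8 genes are named. Each other gene stands by its brightest tested probe set, and each list by up to 4 called members, or its brightest tested one. Gabarapl2, Bcl2, Gsk3b, Il7r, S1pr1, Ctss, Cd79b, Klrd1, Nkg7, Tuba8 (its values), Ms4a6b, Ifngr1, the nearest neighbours and the dim markers were named with their values known. So were Bcl2l1, Bcl2l11, Bad and Map1lc3b. Genes of a list with no 1-symbol probe set are not analysed here. The number of arrays limits the precision.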

Additional observations from a re-analysis of the deposited data

Results flagged for a closer look

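Gimap3 (1449220_at) read 94.9 in mutant 3 and 60.3 to 65.1 in the other mutant mice, so that 1 mouse lay far from the other 3. Of 20 groups of 4 arrays examined over the tested Gimap probe sets this was the 1 such case, and chance gives about 1 in 20. Without mutant 3 the Gimap3 difference was 0.22 (adjusted p = 0.568).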

How the results depend on the processing

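The differences of both Gimap4 probe sets, of Gimap9 and of Gimap3 kept their direction under every alternative run. The number of Gimap probe sets that rose was 2 in each fit without 1 array, 1 with a dim filter on all arrays or with 1 probe set a gene (which leave 1 Gimap4 probe set), 1 at a threshold of 0.01, and 0 with the Xist class in the model. The number that fell was 0 to 1 without 1 array, and 0 with no variance trend (Gimap9 adjusted p = 0.0504), at 0.01 and with the Xist class. All calls numbered 561 (without control 3) to 1493 without 1 array, 427 at 0.01, 8 with the Xist class, 2631 with array weights and 2296 with the array median, which was added after the data were seen.

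Of the partner genes 0 rose with no dim filter, no variance trend, the Xist class, a threshold of 0.01 and the replicate block, and 0 to 1 without 1 array. Of the cluster neighbours 2 rose with quantile normalization, array weights, 1 probe set a gene and the array median, 0 with no dim filter, the Xist class and 0.01, and 0 to 1 without 1 array. Of the mature genes 0 rose and 0 fell with the Xist class, 0 fell at 0.01, and 8 to 10 rose and 1 to 2 fell without 1 array.

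Uncalled differences that changed sign were those of Gimap8 (-0.02), Gimap5 (-0.03) and Gimap7 (-0.31) with the Xist class, Gimap7 with quantile normalization (-0.0046), and Gimap6 1456762_at with array weights (0.12). Without 1 array, Gimap1 ranged from -0.01 to 0.06, Gimap7 from -0.09 to 0.16, and Gimap6 from -0.01 to 0.12 on 1427891_at and from -0.25 to 0.09 on 1456762_at. Apart from the construction named, the cause was not tested.

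The replicate block gave 1081 calls in all and kept the calls of Gimap4 (1.66 and 1.32) and Gimap9 (-0.46). The labels give same-numbered arrays no link beyond the number. Their deviations from the group means correlated at -0.15, 0.18, -0.37 and 0.33, and not every array correlated best with its own number. With 4 arrays a group, these values cannot tell whether the arrays were paired. Dim signals limit Gimap4 1424374_at and Gimap7 1444283_at most.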
